A study of Mus musculus with 4 samples.

Results

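The 8 genes described here, Tcp1, Cct2, Cct3, Cct4, Cct5, Cct6a, Cct7 and Cct8, code for the subunits of the CCT chaperonin (also called TRiC). They were found by symbol in a table of ribosome-protected signal, each as a single row, 8 of the 55573 genes listed. The cells were primary myoblasts grown from mouse hind-limb muscle with FGF in the medium and taken on day 2 of proliferation, and 2 libraries per group were sequenced. The WT libraries came from littermates. The study gives its WT controls as Pax7 CreERT2/+ in one place and as Pax7 +/+; eIF5A f/f in another, so whether these carried Cre or the floxed alleles is not settled. The eIF5A-KO libraries came from Pax7 CreERT2/+; eIF5A f/f mice, 3 weeks old, given tamoxifen (TMX). In this model Cre is active only in cells that express Pax7, the satellite cells, so other cells of a muscle digest keep Eif5a. The samples are titled Polysome-Seq, but their RNA was prepared as fragments protected from RNase I, that is, as ribosome footprints. No source says whether replicates came from separate animals, and the p-values measure only the spread between these libraries.

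CCT is a large chaperonin of the cytosol, a pair of stacked rings that close over a folding protein as ATP is hydrolysed. Each ring holds 1 copy of each of the 8 subunits in a fixed order, so the assembled complex needs them in equal number. Its best known clients are actin and tubulin, which do not reach their native fold without it, and it also folds WD-repeat proteins such as G protein beta subunits and Cdc20. Prefoldin carries unfolded actin and tubulin to CCT, and phosducin-like proteins work with it on its clients.

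The 8 proteins are paralogs, and their sequences show why footprints can be assigned to a single subunit. The stretches below, from the GENCODE M21 transcripts (build GRCm38), surround the nucleotide-binding motif that all chaperonin subunits share. The capitals mark the 15 bases of its 5 codons, which begin with glycine, aspartate, glycine and threonine, with 3 codons on either side. Sequences are on the coding strand, 5′ to 3′.
Tcp1: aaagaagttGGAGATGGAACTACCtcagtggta
Cct2: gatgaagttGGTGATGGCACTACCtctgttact
Cct3: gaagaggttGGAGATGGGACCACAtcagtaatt
Cct4: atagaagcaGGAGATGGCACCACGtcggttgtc
Cct5: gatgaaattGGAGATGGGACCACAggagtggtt
Cct6a: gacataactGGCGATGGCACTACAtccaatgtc
Cct7: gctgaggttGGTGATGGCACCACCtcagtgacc
Cct8: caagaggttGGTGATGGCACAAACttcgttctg
The last of the codons in capitals is for threonine in 7 members and for another residue in Cct8. The motif was written with 7 distinct strings of bases, and 10 of the 15 positions held the same base in all 8. Translated, the coding sequences shared between 26.1% of residues (Cct6a and Cct8) and 39.8% (Tcp1 and Cct7), with a median of 32.9% over the 28 pairs. The longest run of bases identical between any pair of members was 17, and 0 stretches of 28 bases, about the length of a footprint, occurred in more than 1 member.

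The genes lie on 8 chromosomes. In GRCm38, Tcp1 spans chr17:12915701-12925067 on the plus strand and Cct3 spans chr3:88297116-88321767, also on the plus strand. Cct4 (chr11:22990519-23003780), Cct6a (chr5:129786998-129846371) and Cct7 (chr6:85451514-85468475) are on the plus strand as well. Cct2 (chr10:117051001-117063814), Cct5 (chr15:31590800-31601804) and Cct8 (chr16:87483326-87495873) are on the minus strand. The proteins have between 532 and 556 residues, so the coding sequences are of nearly 1 length, 1596 to 1668 bases. For 7 members the coding sequence is annotated. Cct6a has none in GENCODE M21, and the longest reading frame of its transcripts was used. No member has 3 prolines in a row, the kind of stretch at which ribosomes depend most on eIF5A. The longest proline run is 1 residue in Tcp1, Cct2, Cct3 and Cct4, and 2 residues in Cct5, Cct6a, Cct7 and Cct8.

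Some of the coding sequence also occurs in other genes. In Cct3, 19.96% of the 28-base stretches were found in transcripts of other genes, in Cct7 14.4%, in Cct4 6.73% and in Tcp1 3.47%, all of them processed pseudogenes. The share was 0.51% in Cct2 and 0.51% in Cct6a, and 0 in Cct5 and Cct8. The pseudogenes were hardly counted: Cct3-ps1, Gm11516 and Gm15495 had 0 reads in all 4 libraries, and Gm5380 had 1 read in total. How reads with several matches were counted is not stated in the sources used here, so the levels of Cct3 and Cct7 are the most uncertain in this respect. Tcp1, Cct6a, Cct7 and Cct8 also overlap genes on the opposite strand, and the counting is not stated to use strand. Acat3, whose transcript is antisense to 11.5% of the 28-base stretches of Tcp1, had 0 reads. Usp16 (at Cct8) had 12, 8, 24 and 16 reads in WT libraries 1 and 2 and KO libraries 1 and 2. In the same order, Psph (at Cct6a) had 9, 6, 13 and 16 and Mrpl18 (at Tcp1) 0, 6, 5 and 2. Pradc1 (at Cct7) had 2, 0, 0 and 0. Same-strand snoRNA genes were read, Gm23245 (in Cct6a) at 8, 18, 8 and 10 and Snora20 (in Tcp1) at 5, 2, 0 and 3. Snora15 and Gm26130 had 0 reads.

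The libraries held 642429 to 704006 reads, recovered from the deposited values. The sizes that the authors' RPKM values were divided by are not these totals: they were 602863 and 471136 in WT libraries 1 and 2, and 906990 and 807705 in KO libraries 1 and 2, below the totals in WT and above them in KO. With every library scaled instead to the same sum over all genes, the median difference of the members reported below, 0.90 on the log2 scale, became 1.51. The limma-voom alternative below scaled the libraries by factors of 0.909 and 0.710 in WT and 1.28 and 1.21 in KO (libraries 1 and 2). These factors go the same way as the authors' sizes, so that alternative is no independent check of the scaling. Reads on protein-coding genes were 41.5% and 33.9% of all reads in the WT libraries and 65.4% and 59.2% in the libraries labelled KO. The signal of Eif5a, the targeted gene, was 34.9 and 65.2 RPKM (reads scaled by gene length and by a size that the authors set for each library) in WT libraries 1 and 2, and 60.3 and 59.4 RPKM in KO libraries 1 and 2. It was not lower in the second group (log2 difference 0.32, limma adjusted p = 0.839), and the groups are therefore called by their labels. The 7 myoblast markers summed to 316 and 188 RPKM in the WT libraries and to 68.7 and 112 RPKM in KO, and 6 of the 7 had KO below WT without overlap, as did 20.3% of the 11363 tested genes. The 6 fibroblast markers summed to 444 and 250 RPKM against 750 and 327 RPKM, the 5 endothelial markers to 106 and 99.8 RPKM against 139 and 112 RPKM, and the 5 immune markers to 17.1 and 25.6 RPKM against 20.8 and 20.3 RPKM, with Itgam at 0 reads. KO lay above WT without overlap in 4 of the 5 endothelial and 2 of the 6 fibroblast markers, an order that 20.1% of the tested genes had. The part of cell composition in the values below was not tested, and in bulk samples fewer cells of a type and less RNA per cell cannot be told apart.

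All 8 subunits were read in every library, and their levels were higher in the libraries labelled KO, but no difference passed the test and much of it lay between the WT libraries themselves. Tcp1 (ENSMUSG00000068039), the founding member of the family, had 21.4 and 35.0 RPKM in WT libraries 1 and 2 and 54.1 and 50.2 RPKM in KO libraries 1 and 2. The second group lay above the first without overlap. Cct2 (ENSMUSG00000034024), the beta subunit, had 52.5 and 138 RPKM in WT and 160.0 and 161 RPKM in KO. WT library 2 was close to both KO libraries, and WT library 1 stood well below the other 3. Cct3 (ENSMUSG00000001416), the gamma subunit, had 16.4 and 51.0 RPKM in WT and 69.2 and 60.3 RPKM in KO. Cct4 (ENSMUSG00000007739), the delta subunit, had 23.3 and 54.1 RPKM in WT and 62.2 and 57.2 RPKM in KO. Both showed the same order of libraries, with WT library 1 lowest and WT library 2 next. The KO mean was 1.27-fold the level in WT library 2 for Cct3 and 1.10-fold for Cct4.

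Cct5 (ENSMUSG00000022234), the epsilon subunit, was the member whose WT libraries were closest, with 54.6 and 69.1 RPKM in WT and 102 and 98.03 RPKM in KO. Cct6a (ENSMUSG00000029447), the zeta subunit of most tissues, had 38.9 and 124 RPKM in WT and 109 and 163 RPKM in KO. It was the only member whose groups overlapped, since WT library 2 lay above KO library 1, and its KO libraries differed 1.49-fold. Cct7 (ENSMUSG00000030007), the eta subunit, had 23.98 and 45.1 RPKM in WT and 60.7 and 54.1 RPKM in KO. Cct8 (ENSMUSG00000025613), the theta subunit, had 40.3 and 126 RPKM in WT and 170.0 RPKM in each KO library. For these the WT libraries were both below the KO libraries, by a wide margin in WT library 1.

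**Figure D1:**
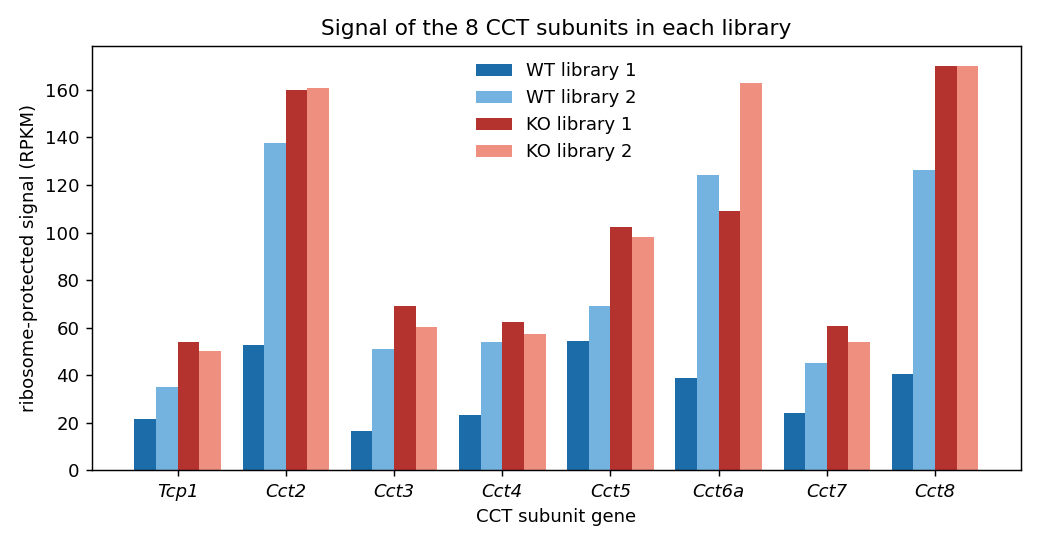
Bars show the ribosome-protected signal in RPKM (vertical axis, from 0) of each CCT subunit gene (horizontal axis) in the 2 WT libraries (blue) and the 2 libraries labelled KO (red). WT library 1 is the lowest of the 4 for every subunit, and Cct6a is the only gene for which a WT bar (library 2, 124 RPKM) exceeds a KO bar (library 1, 109 RPKM).

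The reads behind these levels set their precision. Together, 617 and 1139 reads fell on the 8 genes in WT libraries 1 and 2, and 2719 and 2455 in KO libraries 1 and 2. A single subunit rested on 59 (Cct4) to 98 (Cct7) reads in WT library 1 and on 83 (Tcp1) to 212 (Cct6a) in WT library 2. In the libraries labelled KO the range was 194 (Cct4) to 476 (Cct6a and Cct8).

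As a share of reads on protein-coding genes, the complex took 0.229% in WT library 1 (95% Wilson interval 0.212 to 0.248) and 0.523% in WT library 2 (0.494 to 0.555). In KO library 1 it took 0.591% (0.569 to 0.614) and in KO library 2 0.638% (0.613 to 0.663). These intervals cover counting error only. The intervals of WT library 1 and WT library 2 lay far apart, while that of WT library 2 came close to that of KO library 1. The group values were 0.376% ± 0.208 (SD, n = 2) in WT and 0.614% ± 0.0329 (SD, n = 2) in KO. With all reads as the total, which includes the reads on non-coding RNA, the values were 0.136% ± 0.0581 and 0.382% ± 0.00612 (SD, n = 2 each).

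The difference between the groups was tested gene by gene. The difference of KO minus WT in log2(RPKM + 1), a scale on which low genes appear to change less than they do, was between 0.70 (Cct5) and 1.24 (Cct8). Cct8 had the largest value of the 8, 1.24 ± 0.65 (SE), with a 95% interval of -0.36 to 2.83 and a limma adjusted p of 0.680. Cct3 followed with 1.12 ± 0.61 (SE; limma adjusted p = 0.691). Tcp1 had the smallest p of the members, with a difference of 0.90 ± 0.45 (SE), an interval of -0.19 to 2.00, an unadjusted limma p of 0.0902 and an adjusted p of 0.676. Cct2 and Cct6a had differences of 0.90 and 0.92, Cct7 one of 0.78, and Cct4 one of 0.73, and the interval of each held 0.

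By limma, 0 of the 8 members had an adjusted p under 0.05 and 0 had an unadjusted p under 0.05. Under other settings 0 members again had an adjusted p under 0.05, while the number at an unadjusted p under 0.05 was 2 by limma-voom on recovered reads (where 3.31% of tested genes were higher at that p) and 1 with quantile normalization (3.71%). With every library set to the same sum over all genes it was 8, and 14.8% of tested genes were then higher at that p, since this scaling moved the median of all tested genes from 0.00 to 0.47 (members' unadjusted limma p from 0.00932 to 0.0423, adjusted p from 0.289 to 0.295). Of the 11363 genes tested, 1 was higher at an adjusted p under 0.05 (0.0088%), 11 were lower (0.0968%), and 325 were higher at an unadjusted p under 0.05 (2.86%). All 8 members lay above 0, where 50.0% of all tested genes and 53.1% of tested protein-coding genes did. Their median difference was 0.90, against 0.00 over all tested genes and 0.05 over the protein-coding ones, and 10.0% of tested genes lay above the members' median. The groups did not overlap in 7 of the 8 members, with KO higher, while 20.1% of the tested genes had that order.

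WT library 1 carried much of the difference. Levels in WT library 2 were 1.27-fold (Cct5) to 3.19-fold (Cct6a) those in WT library 1, with a median of 2.47-fold over the 8 members. Over the 10034 tested genes with signal in both WT libraries the median was 1.01-fold, and 12.5% of those genes had a larger ratio than the median subunit. The KO libraries differed from each other by 1.00-fold (Cct8) to 1.49-fold (Cct6a). The KO mean was 1.84-fold to 4.22-fold the level in WT library 1 (median 2.81) and 1.09-fold to 1.49-fold that in WT library 2 (median 1.27).

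Accordingly, the median difference of the members fell to 0.34 on the log2 scale without WT library 1, with single values from 0.10 (Cct6a) to 0.56 (Tcp1) and adjusted p from 0.545 to 0.938 by limma. Without WT library 2 it was 1.46, with values from 0.86 to 2.05, all 8 at an unadjusted p under 0.05, where 7.12% of tested genes were higher at that p, and adjusted p from 0.252 to 0.345. These fits assume that the lone WT library varies as the KO libraries do. The groups then did not overlap in 7 of 8 members without WT library 1, where 34.9% of tested genes had that order, and in 8 of 8 without WT library 2, where 35.9% had it. WT library 1 was also the library with the highest myoblast markers (82 reads of Myog, which marks differentiating myoblasts, against 3, 1 and 2 in the others), and the part of this in the result was not tested.

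**Figure D2:**
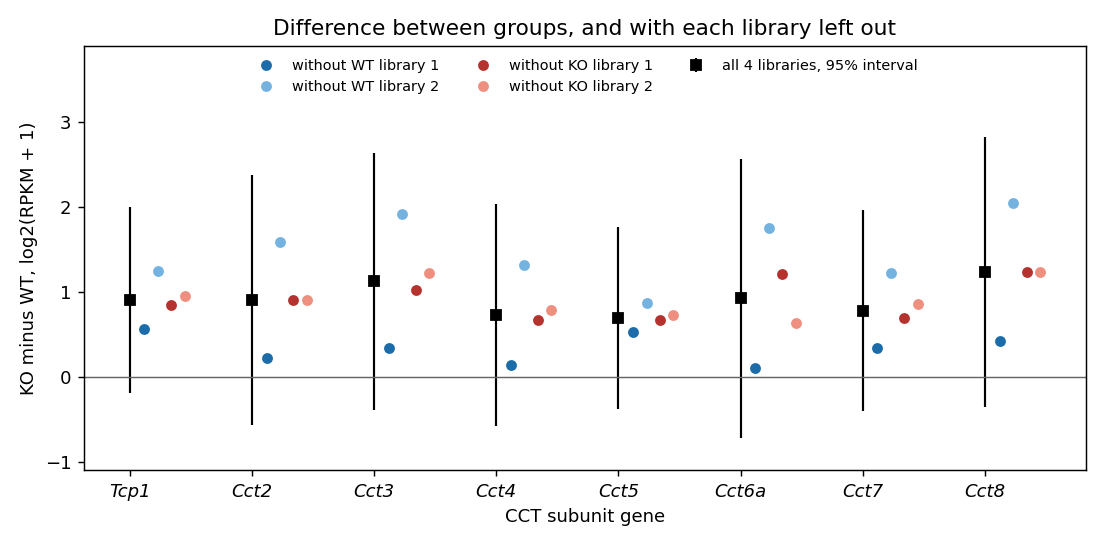
The vertical axis gives the difference of KO minus WT in log2(RPKM + 1) for each subunit gene (horizontal axis). Black squares with bars are the fit to all 4 libraries with its 95% interval, and coloured points are the fits without 1 library. Every black bar crosses 0, and the points without WT library 1 (dark blue) are the lowest for each gene, between 0.10 and 0.56.

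The members also differed from the typical gene in base composition. Their coding GC content was 44.5% (Tcp1) to 51.5% (Cct7), against a median of 53.2% for tested protein-coding genes. The 3136 tested protein-coding genes within the members' GC range had a median difference of 0.24 on the log2 scale, and 65.8% of them lay above 0. With the trend on GC removed, the members' median was 0.72.

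The balance of footprint signal over the 8 subunits was measured within each library, where the scaling between libraries plays no part. Protein was not measured, so the values do not give the subunit content of the assembled complex. Levels in RPKM were spread widely. The coefficient of variation (CV, the SD over the 8 subunits as a percent of their mean) was 47.8% ± 6.31 (SD, n = 2) in WT and 49.8% ± 4.88 (SD, n = 2) in KO, and the highest subunit lay 3.14-fold to 3.93-fold above the lowest. Cct2, Cct5, Cct6a and Cct8 were the 4 highest in each of the 4 libraries. They are also the 4 with the shortest deposited gene length.

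That length exceeds the coding part, on which ribosomes elongate, and which exons it counts was not checked. It runs from 2557 bases (Cct2) to 6778 bases (Cct7), although the coding sequences hardly differ in length. Coding sequence made up 24.1% of the deposited length in Cct7, 25.7% in Cct3, 33.2% in Tcp1 and 38.5% in Cct4. In the other 4 it made up 44.1% (Cct6a), 53.2% (Cct8), 58.7% (Cct5) and 62.8% (Cct2). Which reads fell outside the coding sequence cannot be seen in values per gene, so a count per coding kilobase assigns all reads of a gene to it.

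Per kilobase of coding sequence the CV over the 8 subunits was 25.8% ± 10.1 (SD, n = 2) in WT and 29.6% ± 6.52 (SD, n = 2) in KO. The highest subunit was then 1.65-fold above the lowest in WT library 1, 2.67-fold in WT library 2, 1.98-fold in KO library 1 and 2.49-fold in KO library 2. The groups did not differ in this spread beyond the difference between libraries of a group.

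A subunit's side of the mean was the same in all 4 libraries for 4 of the 8, and beyond counting error in each library only for Cct4. Cct4 had 36.5 and 66.2 reads per coding kilobase in the WT libraries and 147 and 120.0 in KO, below the mean of the 8 in each library (47.4, 87.7, 209 and 189). Tcp1 had 39.0, 49.8, 148 and 122 reads per coding kilobase in the same order, and also lay below the mean in all 4, though in WT library 1 its exact Poisson 95% interval held the mean. Cct2 had 50.5, 103, 231 and 207 and lay above it in all 4, but its interval held the mean in 3 of them, all but WT library 2. Cct6a had 53.3, 133, 224 and 298 and lay above it in all 4 as well, with the widest gap between the KO libraries, and its interval held the mean in WT library 1 and KO library 1.

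The remaining subunits changed sides. Cct5 had 56.1, 55.5, 158 and 135 reads per coding kilobase, above the mean in WT library 1 and below it in the other 3. Cct8 had 45.6, 112, 289.5 and 258, below the mean in WT library 1 and above it in the other 3. Cct3 (38.5, 93.6, 245 and 189.6) and Cct7 (60.0, 88.2, 229 and 181) lay on either side of it or near it. Exact Poisson 95% intervals on the reads held the mean of the 8 for 6 subunits in WT library 1, the one with the fewest reads on the complex, for 2 in WT library 2, and for 3 in each KO library. Beyond counting error, then, most subunits departed from equal density in the 3 libraries with more reads on the complex, while in WT library 1, with fewer reads on the complex and a CV of 18.7% against 33.0% in WT library 2, the interval missed the mean for 2.

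**Figure D3:**
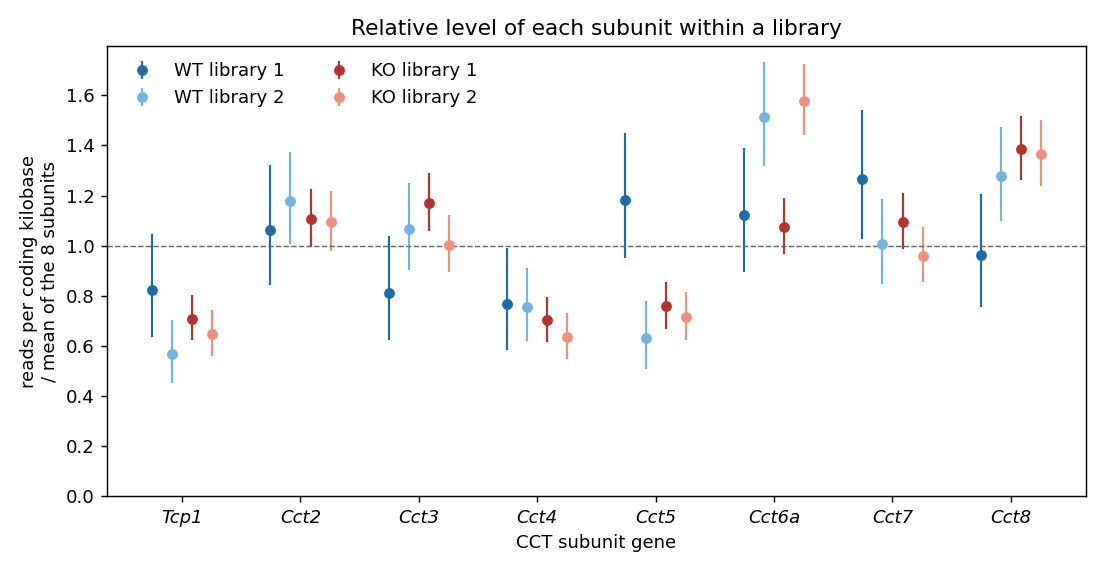
Points give the reads per coding kilobase of each subunit gene divided by the mean of the 8 in the same library (vertical axis, 1 means equal to the mean), with exact Poisson 95% intervals that cover counting error only. Tcp1 and Cct4 lie below the dashed line in all 4 libraries, Cct2 and Cct6a lie above it with intervals that cross it in 3 and 2 libraries, and Cct5 and Cct8 lie on the other side of it in WT library 1 (dark blue).

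The share of each subunit in the summed reads per coding kilobase of the 8 genes was compared between the groups. Equal density would give each of the 8 the same share. Cct8 made up 12.02% and 16.0% of that sum in the WT libraries and 17.3% and 17.1% in KO. Cct4 made up 9.62% and 9.43% in WT and 8.77% and 7.94% in KO. These were the only members whose groups did not overlap, and the two-sided exact permutation p was 0.3333 for each, the smallest that 2 libraries against 2 can give. For Cct8 the WT libraries differed from each other by more than WT library 2 differed from either KO library.

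For the other 6 the groups overlapped, with exact permutation p between 0.667 and 1. Cct6a made up 14.04% and 18.9% in WT and 13.4% and 19.7% in KO, so that its libraries differed far more within the groups than between them. Cct5 went from 14.8% in WT library 1 to 7.91% in WT library 2, with 9.48% and 8.93% in KO. Cct2 was the steadiest of these, with 13.3% and 14.7% in WT and 13.8% and 13.7% in KO. Tcp1 made up 10.3% and 7.09% in WT and 8.86% and 8.09% in KO, Cct3 10.2% and 13.3% against 14.6% and 12.5%, and Cct7 15.8% and 12.6% against 13.7% and 12%.

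A further 4 complexes with 1 copy of each subunit per assembly unit were measured in the same way. Over the 4 libraries the CV per coding kilobase averaged 27.7% for CCT and 27.5% for MCM2-7, the ring helicase of DNA replication. It averaged 41.0% for prefoldin, 55.8% for Arp2/3, the nucleator of branched actin, and 58.8% for the 20S proteasome, whose lowest subunit Psmb5 had 1 read in each WT library. In RPKM the averages were 48.8% for CCT, 33.0% for MCM2-7, 56.6% for prefoldin, 42.5% for Arp2/3 and 85.3% for the 20S proteasome. The move from deposited to coding length thus lowered the average spread of CCT, MCM2-7, prefoldin and the 20S proteasome, and raised that of Arp2/3. The complexes differ in their number of subunits and in reads per subunit, and the differences between them were not tested. Only 1 gene was counted for each subunit, so any gene for another form of a subunit was left out.

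**Figure D4:**
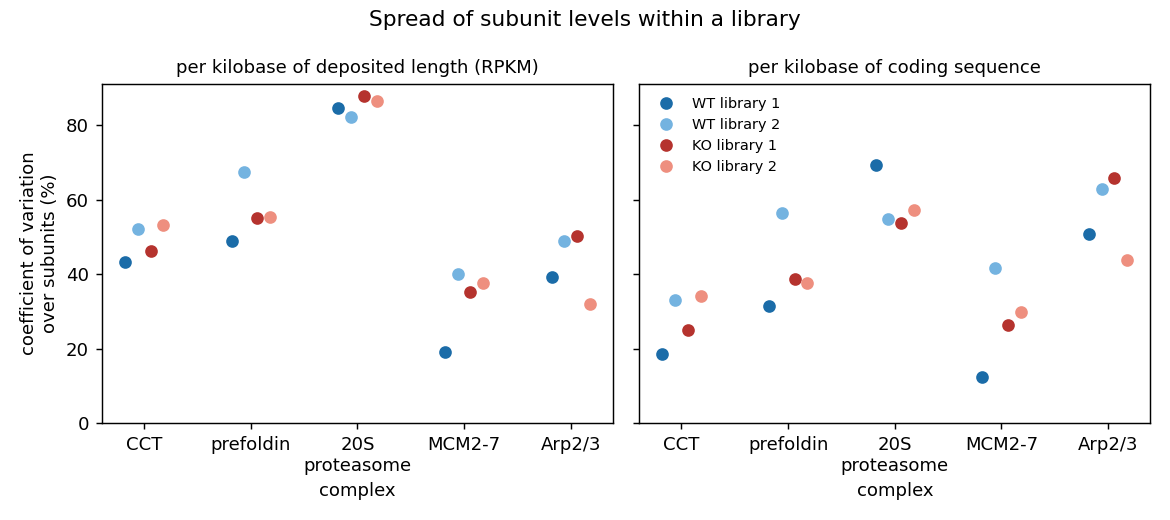
Each point is the CV in percent over the subunits of a complex in 1 library (vertical axis, from 0), for CCT and 4 other complexes (horizontal axis), with levels in RPKM on the left and per coding kilobase on the right. The points of CCT average 48.8% on the left and 27.7% on the right, where they overlap those of MCM2-7.

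Genes that work with CCT were counted from lists, and none of their members passed the test. The paralogs Cct6b, a form of the zeta subunit found in testis, and Cct8l1 had 1 read each, both in WT library 1. Of the 6 prefoldin subunits 4 lay above 0, with a median difference of 0.22 on the log2 scale and 1 of the 6 with KO above WT without overlap, where 20.1% of all tested genes had that order. Vbp1, an alpha-type subunit, had 7.78 and 8.96 RPKM in WT and 13.96 and 17.4 RPKM in KO (difference 0.83, limma adjusted p = 0.676). Pfdn5 had 26.2 and 36.5 RPKM against 38.8 and 36.4 RPKM, and Pfdn1 23.9 and 19.1 RPKM against 23.9 and 24.6 RPKM. Pfdn2 had 11.99 and 20.8 RPKM against 17.1 and 10.9 RPKM, Pfdn4 8.56 and 5.05 RPKM against 9.62 and 7.86 RPKM, and Pfdn6 19.5 and 10.7 RPKM against 12.9 and 15.6 RPKM. A prefoldin subunit rested on 6 to 49 reads in a library, and the whole list of 6 had 74 to 166.

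Of the phosducin-like proteins and other cofactors, 4 of 5 were tested and 2 lay above 0, with a median of -0.06. Pdcl, which assists the folding of G protein beta subunits on CCT, had 9.73 and 8.49 RPKM in WT and 10.6 and 3.63 RPKM in KO. Pdcl3 had 10.6 and 5.03 RPKM against 10.98 and 7.04 RPKM, and Txndc9 2.92 and 3.03 RPKM against 5.33 and 3.40 RPKM. Pdcd5 had 7.34 and 7.68 RPKM against 5.32 and 5.98 RPKM, with KO below WT without overlap, whereas Txndc9 had KO above WT without overlap. Over all tested genes these orders were seen in 20.3% and 20.1%. Pdcl2 had 0 reads in all 4 libraries.

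Of the 21 clients of CCT, 15 lay above 0, with a median difference of 0.35 on the log2 scale. KO lay above WT without overlap in 6 of the 21, where 20.1% of all tested genes had that order, and below it in 1 of the 21, where 20.3% had it. That gene was Rptor, a subunit of the mTORC1 kinase complex. Actb, which codes for beta-actin, had 370.3 and 779.6 RPKM in WT and 876 and 940.0 RPKM in KO, with WT library 1 again lowest. Tubb5, a beta-tubulin, had 80.3 and 144 RPKM against 229 and 179 RPKM. The range over the list was from -0.66 (Tuba1a, 15, 2, 4 and 7 reads) to 1.06 (Tuba1c, 2, 27, 36 and 26 reads). These are few reads, and the effect on them of sequence shared between alpha-tubulin genes was not tested.

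Of the 5 tubulin folding cofactors, which join tubulin dimers after CCT, 4 lay above 0 and the median was 0.30. Tbcd had the largest difference, with 2.05 and 3.15 RPKM in WT and 7.08 and 5.96 RPKM in KO (1.08 on the log2 scale, limma unadjusted p = 0.0311, adjusted p = 0.672), and Tbcc the lowest with -0.34. The mitochondrial chaperonin Hspd1 and its lid Hspe1 had differences of 0.93 and 1.32. The medians were 0.94 for the 14 subunits of the 20S proteasome, 0.88 for the 6 of MCM2-7 and 0.57 for the 7 of Arp2/3, with all of their members above 0, beside 0.90 for CCT. The range was 0.26 (Psmb7) to 1.77 (Psmb5) for the proteasome, 0.32 (Mcm2) to 1.198 (Mcm4) for MCM2-7, and 0.21 (Actr3) to 0.81 (Arpc5) for Arp2/3.

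Finally, genes with a pattern over the 4 libraries most like the mean pattern of the members were listed among 1151 other protein-coding genes that averaged 20 RPKM or more. The measure was the Euclidean distance between centred log2(RPKM + 1) values. Gfpt2 was nearest at 0.0868, with 11.9, 27.7, 37.9 and 35.0 RPKM in WT libraries 1 and 2 and KO libraries 1 and 2. Psmd13 followed at 0.107 and Scpep1 at 0.121. Of the members, Cct2 lay nearest to their mean at 0.149 and Cct5 farthest at 0.626, and 242 of the other genes were nearer to that mean than Cct5.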

How the data were processed

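Ribosome-protected RNA of 4 libraries (2 WT, 2 labelled KO) was analysed, grouped by sample titles. The authors computed the deposited RPKM values per gene. Per the labels, TopHat2, HTSeq and build mm10 were used; strand and the treatment of reads with several matches are not given in the sources used here. RPKM times gene length gave whole multiples of 1 step in 100% of values (tolerance 0.01 reads), so reads were recovered. Totals were 642429 to 704006 reads per library.

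The test was limma 3.58.1 in R 4.3.3 (trend=TRUE), run on log2(RPKM + 1). Genes had to average 1 RPKM or more over the libraries. Benjamini-Hochberg adjustment covered the 11363 genes that did. Simulated reads were used only to check that median fitted changes came near the set ones, and say nothing of error rates here. Intervals were Wilson for shares and exact Poisson for reads, at 95%. Coding sequences came from GENCODE M21, which held 99.7% of the identifiers. All members, prefoldin subunits, CCT cofactors and paralogs were named, the extremes of other lists, and the 3 nearest patterns. Members and lists were chosen with earlier results of these data known. Alternatives changed the pseudocount, filter, scaling, test, GC correction, replicate block and libraries.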

Additional observations from a re-analysis of the deposited data

How the results depend on the processing

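Over 16 alternatives, all 128 differences of single subunits stayed above 0 (0.10 to 2.05 on the log2 scale) and 0 had an adjusted p under 0.05 (0.252 to 0.944). Their median was 0.90 and became 1.51 with every library set to the same sum over all genes, where the median of all genes moved to 0.47, and ranged from 0.34 to 1.46 with a library left out. Genes called lower or higher were 11 and 1, and 38 and 0 by limma-voom on recovered reads. They were 0 and 0 with a minimum of 5 RPKM or of 20 reads, a pseudocount of 0.1, every gene above 0, the same sum over all genes, protein-coding genes only, trend=FALSE, the GC trend removed, and each library left out (0 to 0). The replicate block also gave 0 and 0, with a members' median of 0.90. Deviations of same-numbered libraries correlated at 0.06 over 11363 genes. With so few libraries this value cannot decide whether same-numbered libraries share an origin.

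The CV of the subunits, 47.8% in WT and 49.8% in KO, was 25.8% and 29.6% per coding kilobase and 25.3% and 29.3% on reads not divided by length. The share of the complex, 0.376% and 0.614% of protein-coding reads, was 0.136% and 0.382% of all reads. Leaving out each library in turn, chosen after seeing the data, gave 7 to 8 members without overlap, while the share of tested genes with that order went from 20.1% to between 31.7% (without KO library 1) and 35.9%. It was 33.1% without KO library 2. Precision was lowest in WT library 1, which had 59 to 98 reads per subunit although it was not the library with the fewest reads.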
